A study of Macaca mulatta with 136 samples.

Results

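Genes of glucose transport, lactate transport and glycolysis were followed through the macaque retina and the tissue beneath it. The genes were chosen by name, with earlier results of these data known: SLC2A1, SLC2A3, SLC16A1, SLC16A3, SLC16A7, SLC16A8, BSG, HK2, LDHA and LDHB. Of these 10, 9 had an entry under their symbol among the 19422 gene identifiers measured, and SLC16A8 was not analysed here. All 9 passed the filter on low counts in each fit. Their symbols are carried by 21 entries, of which 2 belong to SLC2A3, 6 to LDHA and 7 to LDHB. The entry with the highest mean count was used for each gene, so that reads of SLC2A3, LDHA and LDHB may be split between similar entries and their values are uncertain to that extent.

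Postmortem eyes of 2 adult rhesus macaques, labelled RM03 and RM04, were the source of the RNA, and the labels give no treatment or genotype. A punch of 2 mm was taken at the fovea and at perimacular, nasal and peripheral locations of each eye and dissected into neural retina and RPE/choroid. RPE/choroid is the retinal pigment epithelium together with the vascular and pigmented layer behind it, so it is not a pure epithelium. This gave 32 libraries, 1 from either of 2 tissues at 4 locations in 4 eyes, where eyes 1 and 2 are the right and left eye of RM03 and eyes 3 and 4 those of RM04. With only 2 animals, p-values measure the spread between these eyes after the monkey is taken into account.

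The outer retina holds no blood vessels, and its photoreceptors draw glucose from the choroid across the pigment epithelium. Photoreceptors turn much of that glucose into lactate even where oxygen is present, and the lactate leaves through monocarboxylate transporters toward the pigment epithelium and the Müller glia. SLC2A1 (GLUT1) and SLC2A3 (GLUT3) carry glucose, HK2 phosphorylates it, LDHA and LDHB interconvert pyruvate and lactate, and SLC16A1 (MCT1), SLC16A3 (MCT4) and SLC16A7 (MCT2) carry lactate and pyruvate with a proton. BSG (basigin) is the membrane chaperone that MCT1 and MCT4 need to reach the cell surface.

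Levels are given as CPM, estimated counts scaled to the library's total after edgeR's TMM correction. They are compared between samples and not between genes, because the deposited values give no gene lengths. A library held 42448891 to 78574034 estimated counts, and the lowest count behind any level given for the 9 genes was 21, for SLC16A7 in peripheral retina of eye 2. Peripheral libraries alone were run on their flow cell, and the periphery and that flow cell cannot be told apart. The tissues carried their labelled markers: 7 rod markers summed to between 3311 and 23050 CPM in retina and between 25.8 and 760 CPM in RPE/choroid, whereas 6 RPE markers summed to between 227 and 1495 CPM in retina and between 2923 and 19306 CPM in RPE/choroid. None of the marker genes used was at 0 in any library. In RPE/choroid, 3 libraries stood apart. Peripheral eye 2 had the lowest RPE marker sum (2923 CPM) and the highest sum of 4 Schwann cell markers (9998 CPM), perimacular eye 1 had the next lowest RPE sum (4119 CPM) and the next highest Schwann sum (6261 CPM), and foveal eye 3 had a rod marker sum of 399 CPM, 11.4% of that in the retina of the same eye. Rod sums were higher in peripheral eyes 1 and 4 (760 and 564 CPM), at 3.59% and 2.62% of their retina. Peripheral eye 1 also had a Schwann sum of 3348 CPM.

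HK2, LDHA and LDHB were higher in retina than in RPE/choroid at all 4 locations, while the transporters and BSG passed the test at some locations and not at others. A gene was called where the Benjamini-Hochberg adjusted p over all genes, from edgeR's quasi-likelihood test with the monkey as a covariate, was under 0.05. At the fovea 8 of the 9 genes were called between the tissues, 5 higher and 3 lower in retina, beside 75.5% of all 16382 genes tested (37% higher and 38.4% lower). At the perimacular location 5 were called (4 higher, 1 lower) beside 76.7% of all genes (37.7% and 39%). Nasal samples gave 6 (3 higher, 3 lower) beside 76.2% (37.6% and 38.6%), and peripheral ones 6 (4 higher, 2 lower) beside 75.7% (37.8% and 37.9%). The 4 eyes of a tissue did not overlap those of the other for 7, 4, 7 and 5 of the 9 genes at foveal, perimacular, nasal and peripheral locations, beside 68.4%, 68.5%, 71.2% and 60.2% of all genes. The share called among the 9 genes was therefore near or below that of all genes at perimacular, nasal and peripheral locations. The median log2 fold change, retina minus RPE/choroid, was 0.78 over the 9 genes at the fovea and -0.19 at the periphery, against medians of -0.00 and 0.02 over all genes.

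**Figure D1:**
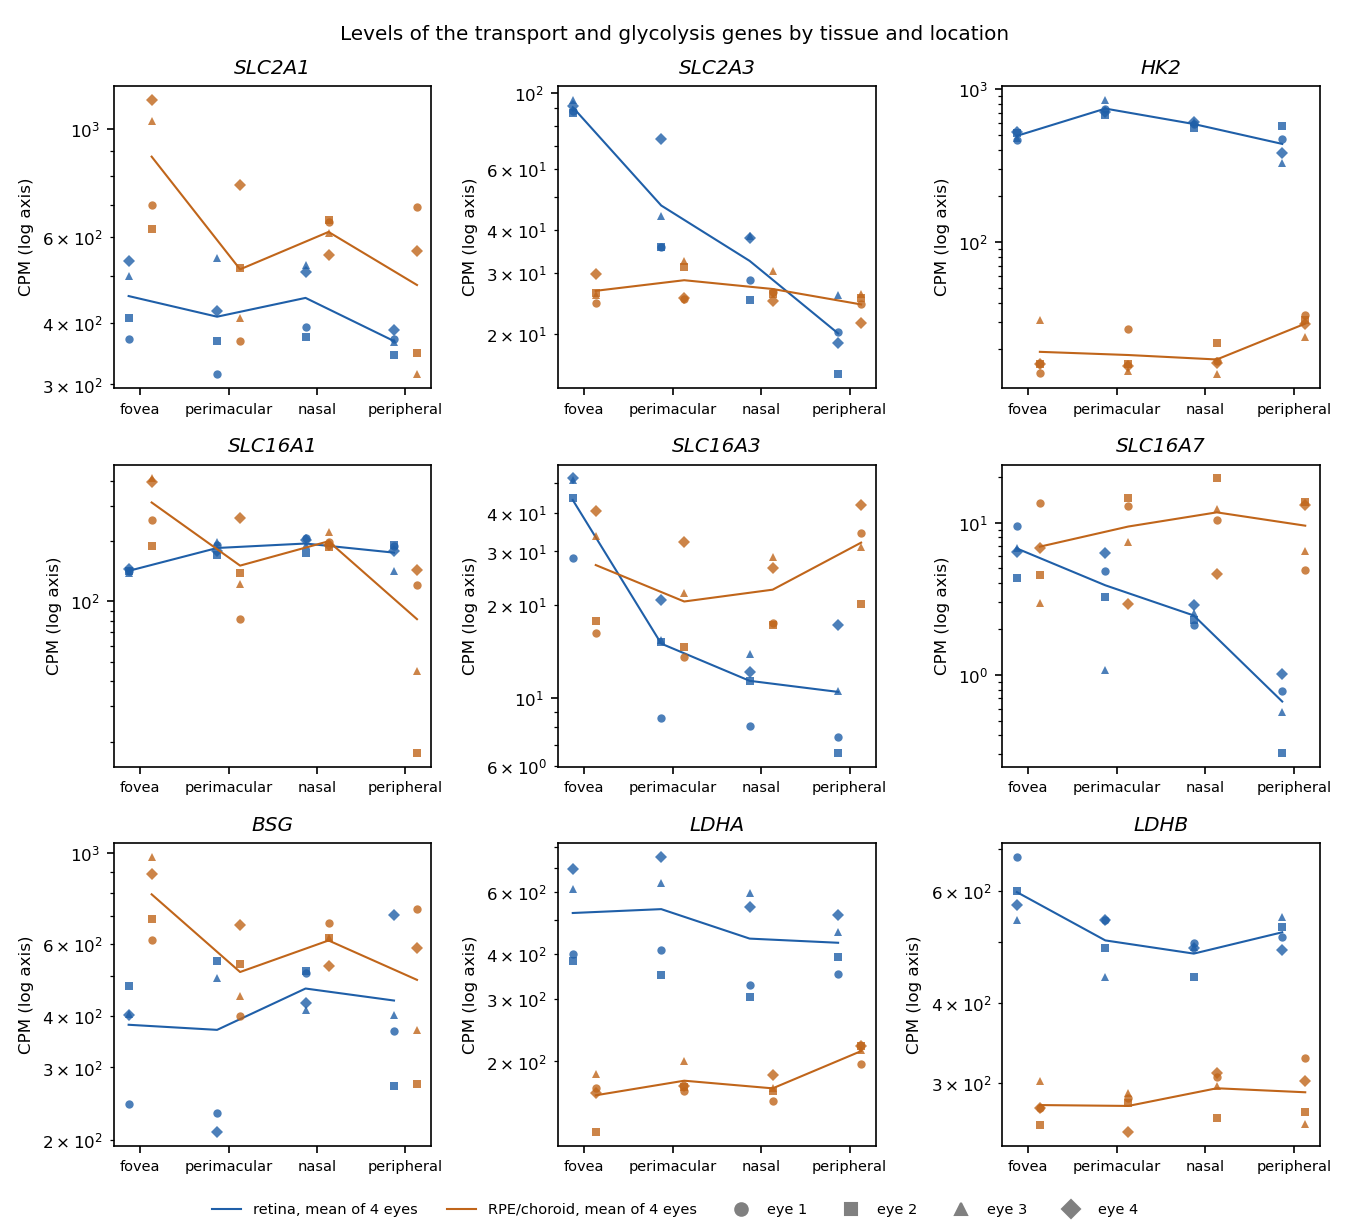
Level of each gene in CPM (log axis) at 4 locations in retina (blue) and RPE/choroid (orange); each marker is an eye and lines join the means of 4 eyes. HK2 runs at 330 to 854 CPM in retina and 13.7 to 33.4 CPM in RPE/choroid, SLC2A3, SLC16A3 and SLC16A7 fall from retinal fovea to periphery, and SLC16A1 in RPE/choroid spreads from 17.5 to 411 CPM.

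SLC2A1 (ENSMMUG00000000373), the glucose transporter of the blood-retinal barriers, was higher in RPE/choroid than in retina at the fovea. Foveal RPE/choroid had 699, 624, 1039 and 1147 CPM in eyes 1 to 4, and foveal retina 371, 411, 500 and 538 CPM. The groups did not overlap, and both eyes of RM04 were above both eyes of RM03 in each tissue. The log2 fold change, retina minus RPE/choroid, was -0.93 ± 0.22 (standard error; edgeR, adjusted p = 0.000389). At the nasal location retina had 376 to 525 CPM and RPE/choroid 551 to 652 CPM, and the difference of -0.48 passed the test only narrowly (edgeR, adjusted p = 0.0485). It was not called with DESeq2 (adjusted p = 0.0509), with the eye as a replicate block (edgeR, adjusted p = 0.0513), or without eye 1, 2 or 4 (edgeR, adjusted p from 0.0668 to 0.289). At perimacular and peripheral locations the tissues overlapped, with differences of -0.33 (edgeR, adjusted p = 0.169, and 0.0482 without eye 3) and -0.40 (edgeR, adjusted p = 0.0978).

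SLC2A3 (ENSMMUG00000046124), a high-affinity glucose transporter known from neurons, went the other way at the fovea. Foveal retina had 88.7, 87.1, 95.3 and 91.6 CPM in eyes 1 to 4, and foveal RPE/choroid 24.6, 26.3, 26 and 29.95 CPM. Every retina library was above every RPE/choroid library, with a log2 fold change of 1.77 ± 0.16 (edgeR, adjusted p = 1.48e-10). The difference was 0.69 at the perimacular location (edgeR, adjusted p = 0.000297), 0.25 in nasal samples (edgeR, adjusted p = 0.145) and -0.29 at the periphery (edgeR, adjusted p = 0.0914). Over 16 libraries each, SLC2A3 spanned 15.3 to 95.3 CPM in retina with a median of 36.9 CPM, but only 21.5 to 32.5 CPM in RPE/choroid with a median of 26 CPM.

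SLC16A1 (ENSMMUG00000006171) encodes MCT1, the proton-coupled carrier of the apical RPE membrane and of photoreceptors. With SLC16A3 it was 1 of 2 genes called in opposite directions at different locations. Foveal RPE/choroid had 254, 188, 411 and 393 CPM in eyes 1 to 4 and foveal retina 141, 143, 139 and 145 CPM, so that the tissues did not overlap and retina hardly varied between eyes. Retina minus RPE/choroid came to -1.10 ± 0.37 on the log2 scale (edgeR, adjusted p = 0.0101), but the call was lost without eye 3 (-0.82, edgeR, adjusted p = 0.118) and without eye 4 (-0.92, edgeR, adjusted p = 0.0685). Peripheral retina had 189, 191, 142 and 179 CPM and peripheral RPE/choroid 121, 17.5, 44.8 and 143 CPM. Here retina was higher in 4 of 4 eyes, although the groups just overlapped, with the lowest retina library at 142 CPM and the highest RPE/choroid library at 143 CPM. The log2 fold change was 1.13 ± 0.37 (edgeR, adjusted p = 0.00806). Without the peripheral RPE/choroid library of eye 2 it was 0.79 and still called (edgeR, adjusted p = 0.0218), whereas it was not called without both tissues of eye 2 at all locations (0.74, edgeR, adjusted p = 0.0722) or with the peripheral libraries fitted alone (1.11, edgeR, adjusted p = 0.13). At perimacular and nasal locations the differences of 0.32 and -0.03 were not called (edgeR, adjusted p = 0.427 and 0.937).

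SLC16A3 (ENSMMUG00000010121) encodes MCT4, the lactate exporter of cells with high glycolytic flux. It was higher in retina at the fovea, where the eyes had 28.6, 44.7, 51.4 and 51.9 CPM in retina against 16.2, 17.8, 33.8 and 40.5 CPM in RPE/choroid. The tissues overlapped over the 4 eyes, but retina was higher within 4 of 4 eyes and RM04 exceeded RM03 in both tissues. Retina minus RPE/choroid came to 0.78 ± 0.21 on the log2 scale (edgeR, adjusted p = 0.00155), and without the monkey as a covariate it was 0.71 and not called (edgeR, adjusted p = 0.0649). At the nasal location retina had 8.07 to 13.9 CPM and RPE/choroid 17.3 to 28.7 CPM, a log2 fold change of -0.96 (edgeR, adjusted p = 0.000204). At the periphery retina had 7.47, 6.60, 10.5 and 17.2 CPM and RPE/choroid 34.4, 20.2, 31.1 and 42.6 CPM, with no overlap and a log2 fold change of -1.68 ± 0.21 (edgeR, adjusted p = 7.89e-08).

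SLC16A7 (ENSMMUG00000014778) encodes MCT2, a high-affinity lactate and pyruvate carrier known from neurons. It had the lowest counts of the 9 genes. At the fovea the tissues had almost the same mean, 6.76 ± 2.11 CPM in retina and 6.94 ± 4.64 CPM in RPE/choroid (SD, n = 4 eyes), and the log2 fold change of 0.00 was not called. At the periphery retina had 0.779, 0.306, 0.567 and 1.02 CPM and RPE/choroid 4.90, 13.7, 6.52 and 13.04 CPM. Every RPE/choroid library was above every retina library there, a log2 fold change of -3.81 ± 0.58 (edgeR, adjusted p = 1.49e-06). The nasal difference was -2.19 (edgeR, adjusted p = 0.000637). The perimacular difference of -1.22 (edgeR, adjusted p = 0.0358) was lost without eye 1, 2 or 3 (adjusted p from 0.104 to 0.214), without the perimacular RPE/choroid library of eye 1 alone (adjusted p = 0.0798), and with the perimacular libraries fitted alone (adjusted p = 0.114, edgeR throughout).

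BSG (ENSMMUG00000018740), the chaperone, was higher in RPE/choroid at the fovea, with 615, 690, 977 and 888 CPM in eyes 1 to 4 against 244, 475, 405 and 402 CPM in retina. The groups did not overlap, and the log2 fold change was -1.05 ± 0.31 (edgeR, adjusted p = 0.00372). The call was lost without eye 3 (-0.87, edgeR, adjusted p = 0.0630). The differences of -0.46, -0.39 and -0.19 at perimacular, nasal and peripheral locations were not called (edgeR, adjusted p = 0.177, 0.258 and 0.591). At the nasal location the tissues still did not overlap, at 415 to 514 CPM in retina and 532 to 676 CPM in RPE/choroid, and a fit of those libraries alone did call it (edgeR, adjusted p = 0.00119).

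HK2 (ENSMMUG00000011845), the hexokinase that photoreceptors are known for, showed the widest gap of the 9 genes between the tissues. Foveal retina had 463, 515, 484 and 522 CPM and foveal RPE/choroid 13.9, 16, 31 and 16.1 CPM. Over all locations the lowest of 16 retina libraries (330 CPM) was far above the highest of 16 RPE/choroid libraries (33.4 CPM). On the log2 scale the difference was 4.67 ± 0.24 at the fovea, 5.36 ± 0.25 at the perimacular location, 5.12 ± 0.25 in nasal samples and 3.89 ± 0.23 at the periphery (edgeR, highest adjusted p = 3.16e-14). HK2 in RPE/choroid was 1.69% to 7.58% of its level in the retina of the same eye and location, and the summed rod markers were 0.188% to 11.4%. The foveal RPE/choroid library of eye 3 was highest among the foveal libraries in both measures, at 6.41% for HK2 and 11.4% for rod markers, but at the periphery HK2 ran at 5.49% to 7.58% while rod markers ran at 0.445% to 3.59%. The part of retinal RNA in the HK2 level of RPE/choroid was not tested. Without foveal eye 3 of RPE/choroid the foveal log2 fold change was 5.04 (edgeR, adjusted p = 5.00e-17).

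LDHA (ENSMMUG00000031024), whose enzyme subunit favours lactate formation, was higher in retina at each location with no overlap between the tissues. Foveal retina had 402, 383, 611 and 696 CPM and foveal RPE/choroid 168, 127, 184 and 163 CPM. In retina, both eyes of RM04 were above both eyes of RM03 at all 4 locations. The log2 fold change fell in size from 1.67 ± 0.15 at the fovea through 1.55 and 1.35 to 0.99 ± 0.15 at the periphery (edgeR, highest adjusted p = 1.50e-06). LDHB (ENSMMUG00000002679), whose subunit favours the return of lactate to pyruvate, had 679, 602, 540 and 572 CPM in foveal retina and 274, 257, 301 and 274 CPM in foveal RPE/choroid. The lowest of its 16 retina libraries (439 CPM) was above the highest of its 16 RPE/choroid libraries (328 CPM), and its log2 fold changes were 1.11 ± 0.09, 0.87, 0.70 and 0.84 in the same order (edgeR, highest adjusted p = 4.66e-08). The log2 ratio of LDHA to LDHB averaged -0.24 ± 0.54 in foveal retina and -0.79 ± 0.15 in foveal RPE/choroid (SD, n = 4 eyes). Only differences of this ratio between groups can be read, since the entries differ in sequence, and in retina it followed the animal, from -0.71 in RM03 to 0.23 in RM04 at the fovea.

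**Figure D2:**
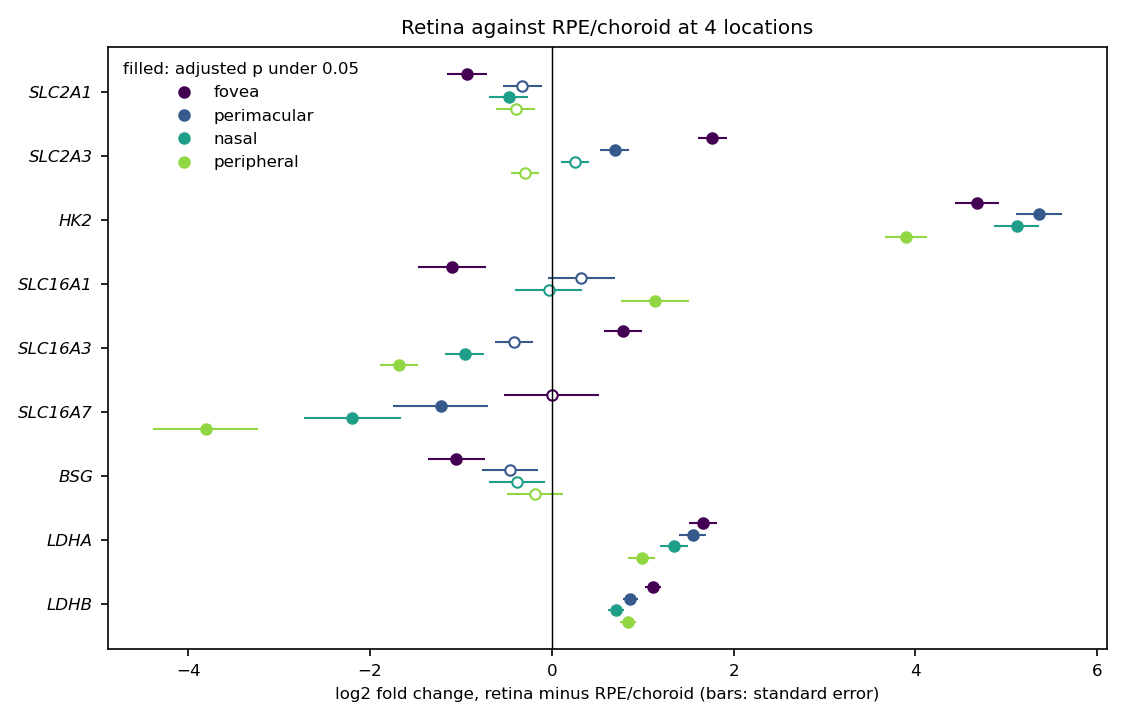
Log2 fold change between retina and RPE/choroid for each gene at 4 locations, with standard errors; filled points were called. HK2, LDHA and LDHB lie right of 0 at all 4 locations, and SLC16A1 moves from -1.10 at the fovea to 1.13 at the periphery while SLC16A3 and SLC16A7 move the other way, from 0.78 and 0.00 to -1.68 and -3.81.

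Within the retina, SLC2A3, SLC16A3 and SLC16A7 were highest at the fovea and SLC16A1 lowest there. Between fovea and perimacular retina 5 of the 9 genes were called, 3 higher and 2 lower at the fovea, beside 35.2% of all 15380 genes (19% higher and 16.2% lower). Between fovea and nasal retina 6 were called, 5 higher and 1 lower, beside 52.2% of 15486 genes (25.1% and 27.2%), and between fovea and periphery 7, 6 higher and 1 lower, beside 67% of 15380 genes (31% and 36%). Foveal eyes did not overlap the others for 4, 6 and 3 of the 9 genes in these comparisons, beside 29.5%, 44.1% and 53.6% of all genes. The median absolute log2 fold change over the 9 genes was 0.32, 0.36 and 0.29 in these comparisons, against 0.29, 0.36 and 0.58 over all genes. The 3 comparisons share the foveal libraries.

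SLC2A3 fell from 88.7, 87.1, 95.3 and 91.6 CPM at the fovea to 35.7, 35.7, 43.9 and 73.3 CPM in perimacular, 28.6, 25.2, 38.5 and 38.0 CPM in nasal and 20.2, 15.3, 26 and 18.9 CPM in peripheral retina. The foveal libraries stood clear of all others, the perimacular library of eye 4 lay well above the other perimacular eyes, and nasal and peripheral libraries overlapped. Foveal log2 fold changes were 1.04 ± 0.18 against perimacular (edgeR, adjusted p = 0.00111), 1.54 ± 0.16 against nasal (edgeR, adjusted p = 2.53e-06) and 2.24 ± 0.18 against peripheral retina (edgeR, adjusted p = 7.38e-07). SLC2A1 moved little beside it, with foveal log2 fold changes of 0.20, 0.05 and 0.34, of which only the last was called (edgeR, adjusted p = 0.0122) and that call was lost without eye 2 or eye 4 (edgeR, adjusted p = 0.0607 and 0.0991). The log2 ratio of SLC2A1 to SLC2A3 in retina accordingly rose from 2.31 ± 0.21 at the fovea through 3.17 ± 0.47 and 3.80 ± 0.07 to 4.22 ± 0.29 at the periphery (SD, n = 4 eyes), and foveal and peripheral eyes did not overlap.

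SLC16A3 had 28.6, 44.7, 51.4 and 51.9 CPM in foveal retina and 8.62, 15.2, 15.4 and 20.8 CPM in perimacular retina, with no overlap. Its foveal log2 fold changes were 1.62 ± 0.22, 1.99 ± 0.22 and 2.18 ± 0.23 against perimacular, nasal and peripheral retina (edgeR, highest adjusted p = 0.000336). SLC16A7 fell over a wider range, from 9.45, 4.32, 6.85 and 6.40 CPM at the fovea to 2.13, 2.28, 2.53 and 2.87 CPM in nasal retina and 0.779, 0.306, 0.567 and 1.02 CPM at the periphery. Foveal and peripheral libraries were far apart. Its foveal log2 fold change was 0.85 and not called against perimacular retina (edgeR, adjusted p = 0.178), 1.504 ± 0.42 against nasal (edgeR, adjusted p = 0.00743, lost without eye 1 at 0.0618) and 3.38 ± 0.52 against peripheral retina (edgeR, adjusted p = 0.000109).

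Markers of ganglion cells, like these 3 carriers, were highest at the fovea of the retina. From nasal to peripheral retina the ganglion cell sum, given below, fell without overlap. SLC16A3 overlapped over that step, at 8.07 to 13.9 and 6.60 to 17.2 CPM. Markers of bipolar and amacrine cells were not looked at. The cone marker sum had its highest mean at the fovea, but its libraries overlapped between foveal and perimacular retina and among the other locations. The sum of 5 ganglion cell markers (RBPMS, THY1, SNCG, NEFL and NEFM) was 7336 to 8361 CPM in foveal, 2083 to 4496 CPM in perimacular, 1458 to 1695 CPM in nasal and 359 to 770 CPM in peripheral retina. All 5 were called as higher at the fovea in each comparison. Over all genes 19%, 25.1% and 31% were called as higher at the fovea against perimacular, nasal and peripheral retina. The perimacular library of eye 4, highest among perimacular eyes for SLC2A3, SLC16A3 and SLC16A7, also had the highest ganglion cell sum there (4496 CPM). The sum of 6 cone markers was 2343 to 3042 CPM in foveal, 1454 to 2528 CPM in perimacular, 1222 to 2139 CPM in nasal and 1667 to 1767 CPM in peripheral retina, again highest among perimacular eyes in eye 4, and 5 of the 6 were called as higher at the fovea in each comparison. The sum of 7 rod markers ran the other way, from 3311 to 3890 CPM at the fovea to 20597 to 23050 CPM at the periphery, and that of 5 Müller glia markers from 1261 to 1395 CPM to 4004 to 5649 CPM. The same Müller glia sum was 3935 to 6829 CPM in RPE/choroid, so it is not particular to retina. RPE marker sums in retina rose too, from 227 to 330 CPM at the fovea to 739 to 1495 CPM at the periphery. The part of these cell types in the levels of the carriers was not tested, and in bulk tissue fewer cells of a type cannot be told apart from less RNA per cell.

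SLC16A1 was lowest at the fovea of the retina, by small steps. Foveal eyes lay at 139 to 145 CPM, perimacular at 171 to 198, nasal at 175 to 208 and peripheral at 142 to 191 CPM. Its foveal log2 fold changes were -0.32 ± 0.09, -0.42 ± 0.08 and -0.25 ± 0.09 (edgeR, adjusted p = 0.0170, 0.000691 and 0.0317). The perimacular call was lost without eye 1 (edgeR, adjusted p = 0.0857), and the peripheral call without eye 1, 2 or 4 (edgeR, adjusted p from 0.0829 to 0.212) and with the eye as a replicate block (edgeR, adjusted p = 0.0505).

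HK2 had its highest retinal level in the perimacular location, with 747, 680, 854 and 710 CPM, above every nasal library (559 to 611 CPM), and the nasal libraries in turn were above every foveal one (463 to 522 CPM). The fovea was lower than perimacular retina by a log2 fold change of -0.54 ± 0.14 (edgeR, adjusted p = 0.0112, and 0.0663 without eye 1). Against nasal and peripheral retina the foveal differences of -0.22 and 0.24 were not called (edgeR, adjusted p = 0.154 and 0.149), although the nasal one was called in the compared groups alone (-0.20, edgeR, adjusted p = 0.0101) and the peripheral one without eye 2 (0.37, edgeR, adjusted p = 0.0441). LDHB was higher at the fovea than in perimacular, nasal and peripheral retina by 0.31, 0.36 and 0.26 on the log2 scale (edgeR, adjusted p = 0.0210, 0.00174 and 0.0231), but only the nasal call held whichever eye was left out. LDHA was higher at the fovea than in nasal and peripheral retina by 0.29 each (edgeR, adjusted p = 0.0207 and 0.0388). Both calls were lost without eye 1 or eye 4 (edgeR, adjusted p from 0.0765 to 0.0904), the peripheral one also without eye 3 (edgeR, adjusted p = 0.102), and neither was called without the monkey as a covariate (edgeR, adjusted p = 0.461 and 0.288). BSG was not called in any of the 3 retinal comparisons (edgeR, lowest adjusted p = 0.534), and its retinal libraries spread widely, from 209 to 705 CPM.

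**Figure D3:**
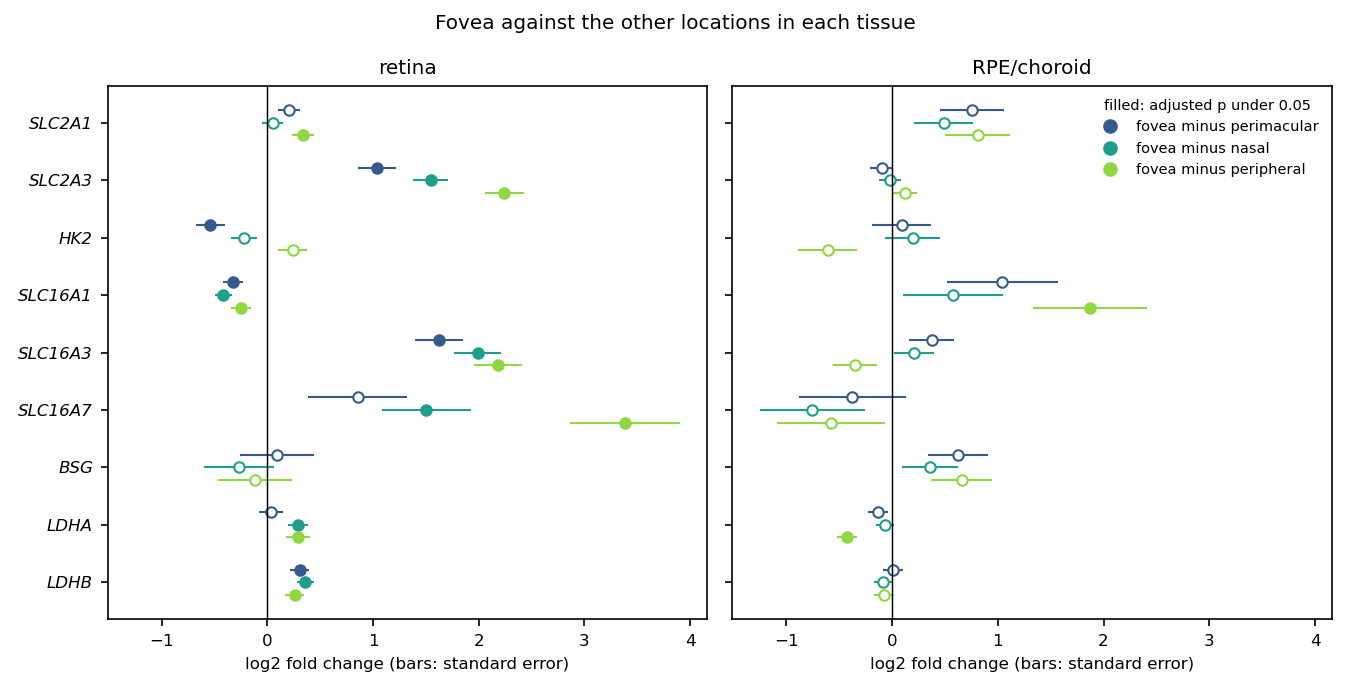
Log2 fold change of the fovea against perimacular, nasal and peripheral locations in retina (left) and RPE/choroid (right), with standard errors; filled points were called. In retina SLC2A3, SLC16A3 and SLC16A7 reach 2.24, 2.18 and 3.38 against the periphery, and in RPE/choroid only SLC16A1 (1.87) and LDHA (-0.42) were called, both against the periphery.

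In RPE/choroid SLC16A1 was higher and LDHA lower at the fovea than at the periphery, and no other call was made by location. Against perimacular RPE/choroid edgeR called 0 of the 9 genes beside 0.0447% of all 15674 genes, with SLC2A1 alone at an unadjusted p under 0.05 beside 10.7% of all genes, and DESeq2 called 0. Against nasal RPE/choroid edgeR called 0 beside 0.361% of 15789 genes, with 0 at an unadjusted p under 0.05 beside 15.5% of all genes, and DESeq2 called 0. Against the periphery 2 were called, 1 higher and 1 lower at the fovea, beside 44.1% of 15674 genes (21.2% higher and 22.9% lower). Foveal eyes overlapped perimacular and nasal ones for all 9 genes, where 6.01% and 6.9% of all genes did not overlap, and were clear of peripheral ones for 2 genes, beside 31.1% of all.

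Peripheral RPE/choroid had 121, 17.5, 44.8 and 143 CPM of SLC16A1 against 254, 188, 411 and 393 CPM at the fovea, with no overlap. The log2 fold change, fovea minus periphery, was 1.87 ± 0.54 (edgeR, adjusted p = 0.0166). It was 1.56 and still called without the peripheral library of eye 2 (edgeR, adjusted p = 0.0175), and 1.59 and not called without eye 3 (edgeR, adjusted p = 0.0747). Against perimacular and nasal RPE/choroid SLC16A1 was higher at the fovea within 4 of 4 eyes, by 1.04 and 0.57 on the log2 scale, but neither was called (edgeR, adjusted p = 0.517 and 0.611).

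SLC2A1 and BSG leaned the same way without a call. SLC2A1 had 699, 624, 1039 and 1147 CPM at the fovea and 693, 348, 315 and 562 CPM at the periphery, which made a log2 fold change of 0.81 ± 0.31 (edgeR, adjusted p = 0.0525). The groups overlapped only through eye 1 of the periphery. DESeq2 called it (0.83, adjusted p = 0.0102), as did the fit with the eye as a replicate block (0.87, edgeR, adjusted p = 0.0370) and the fit without eye 1 (1.17, edgeR, adjusted p = 0.0176). BSG had 731, 274, 370 and 587 CPM at the periphery against 615 to 977 CPM at the fovea, with a log2 fold change of 0.66 ± 0.29 (edgeR, adjusted p = 0.0855). It too was called by DESeq2 (adjusted p = 0.0299) and without eye 1 (1.08, edgeR, adjusted p = 0.0115).

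These 3 genes were set beside the RPE markers among RPE/choroid libraries. Peripheral eye 2, with the lowest RPE marker sum of 2923 CPM, had 17.5 CPM of SLC16A1, 348 CPM of SLC2A1 and 274 CPM of BSG. Foveal eye 3, with an RPE marker sum of 17353 CPM, had 411, 1039 and 977 CPM. Peripheral eyes 1 and 4, at RPE sums of 17324 and 19306 CPM, had 121 and 143 CPM of SLC16A1. These sums were not made up alike, as RPE65 had 4391 CPM in peripheral eye 1 and 8147 CPM in foveal eye 3. For SLC2A1 and BSG, peripheral eye 4 had 562 and 587 CPM. Foveal eye 2 had 624 and 690 CPM at an RPE sum of 7654 CPM. The lowest SLC2A1 (315 CPM) was in peripheral eye 3 at an RPE sum of 9612 CPM. RPE marker sums themselves overlapped between fovea (7654 to 17353 CPM) and periphery (2923 to 19306 CPM), and 1 of the 6 RPE markers was called between them, lower at the fovea. All 6 endothelial and all 4 smooth muscle markers were called as higher at the fovea, the smooth muscle sum running from 4987 to 8198 CPM there and from 422 to 1755 CPM at the periphery, and 3 of 4 Schwann cell markers as lower, beside 21.2% of all genes higher and 22.9% lower. The melanocyte sum ran from 5459 to 7166 CPM at the fovea and from 9018 to 11077 CPM at the periphery, with 1 of 5 markers called as higher and 2 as lower at the fovea. The part of tissue makeup in these differences was not tested.

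**Figure D4:**
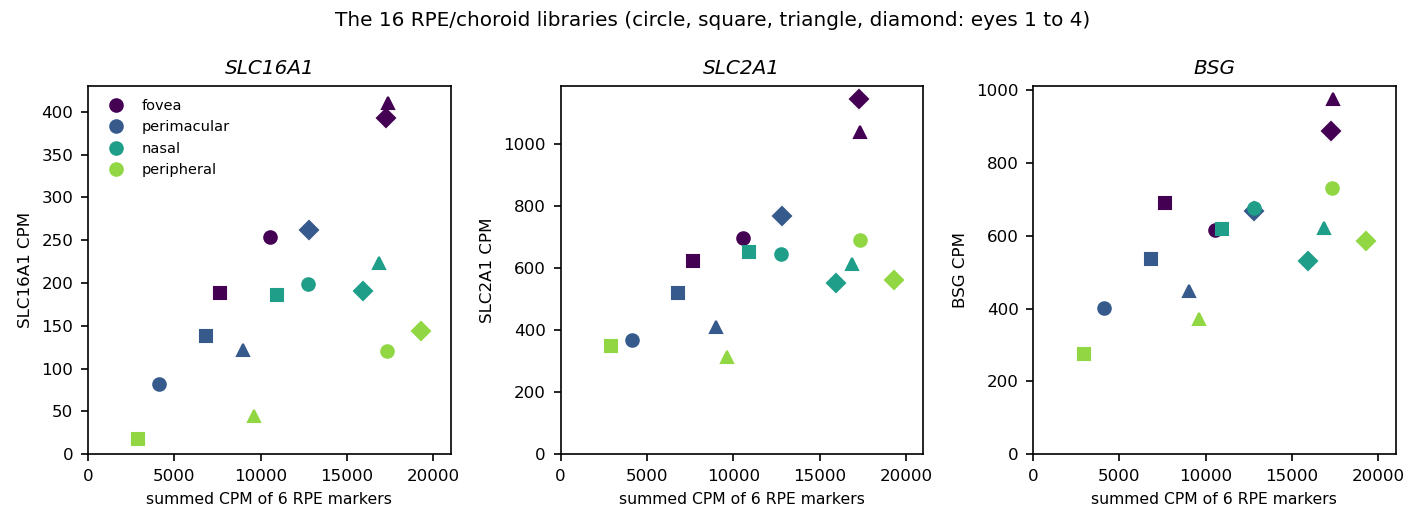
CPM of SLC16A1, SLC2A1 and BSG against the summed CPM of 6 RPE markers in the 16 RPE/choroid libraries, coloured by location, with the marker shape giving the eye. The peripheral library with the lowest RPE sum (2923 CPM) has the lowest SLC16A1 and BSG, and peripheral libraries at RPE sums of 17324 and 19306 CPM lie well below foveal ones for SLC16A1.

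LDHA was lower at the fovea, with 168, 127, 184 and 163 CPM against 197, 221, 216 and 222 CPM at the periphery of RPE/choroid and no overlap. On the log2 scale the fovea differed by -0.42 ± 0.10 (edgeR, adjusted p = 0.00484), it was called whichever eye was left out, and without the peripheral library of eye 2 it was -0.38 (edgeR, adjusted p = 0.0123). HK2 had 33.4, 31.3, 24 and 29.1 CPM at the periphery against 13.9, 16, 31 and 16.1 CPM at the fovea. Its log2 fold change of -0.61 ± 0.28 was not called (edgeR, adjusted p = 0.100). Without the foveal library of eye 3, a fit added after seeing the data, it was -0.98 and called (edgeR, adjusted p = 0.00327). That library had a rod marker sum of 399 CPM, and peripheral eyes 1 and 4, at 760 and 564 CPM, were kept. The part of rod RNA in this difference was not tested. SLC2A3, SLC16A3, SLC16A7 and LDHB were not called against the periphery (edgeR, lowest adjusted p = 0.203).

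Whether the step from fovea to elsewhere differed between the tissues was tested as an interaction, where a positive value means a larger foveal excess in retina. Against perimacular 2 of the 9 genes were called (both positive) beside 15.2% of 16382 genes (7.08% positive and 8.14% negative). Against nasal 4 were called (all positive) beside 23.5% (11% and 12.5%), and against the periphery 6 (5 positive, 1 negative) beside 43.5% (19.1% and 24.5%). SLC2A3 and SLC16A3 were called in all 3, at 1.07, 1.51 and 2.06 and at 1.19, 1.74 and 2.46 (edgeR, highest adjusted p = 0.00682). The perimacular call of SLC16A3 was lost without eye 3 (edgeR, adjusted p = 0.0510) and without the monkey as a covariate (edgeR, adjusted p = 0.131). SLC16A7 was called against nasal at 2.19 (edgeR, adjusted p = 0.0296) and the periphery at 3.81 (edgeR, adjusted p = 0.000203), the former lost without eye 1, 2 or 3 (adjusted p from 0.0644 to 0.139) or without the foveal RPE/choroid library of eye 3 (adjusted p = 0.0636). SLC16A1 was the only negative one in this fit, at -2.23 against the periphery (edgeR, adjusted p = 0.00119, and -1.90 without the peripheral RPE/choroid library of eye 2), and it was lower at the fovea in retina and higher there in RPE/choroid. Its interactions of -1.42 and -1.06 against perimacular and nasal were not called (edgeR, adjusted p = 0.0655 and 0.152), but were in the compared groups alone (edgeR, adjusted p = 0.0202 and 0.00308), the perimacular one also with DESeq2 (adjusted p = 0.0380). LDHA and HK2 were called against the periphery at 0.68 and 0.78 (edgeR, adjusted p = 0.0106 and 0.0336), where HK2 was not called without eye 1, 2 or 4 (edgeR, adjusted p from 0.0737 to 0.22) and LDHA not without the monkey as a covariate (edgeR, adjusted p = 0.0853). Against perimacular, HK2 at -0.68 was called only without the perimacular RPE/choroid library of eye 1 (-0.91, edgeR, adjusted p = 0.0312). LDHB was called against nasal alone, at 0.41 (edgeR, adjusted p = 0.0159), and that was lost without eye 1, 2 or 4 (edgeR, adjusted p from 0.0527 to 0.113). Its peripheral interaction of 0.28 was not called (edgeR, adjusted p = 0.0710) but was without eye 3 (0.50, edgeR, adjusted p = 0.00981) and without the foveal RPE/choroid library of eye 3 or the peripheral one of eye 2 (edgeR, adjusted p = 0.0409 and 0.0484). It was also called with DESeq2 (adjusted p = 0.0468), with at least 10 counts in every library (edgeR, adjusted p = 0.0319) and with library totals (edgeR, adjusted p = 0.00581).

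The other genes of the pathway were grouped in 7 lists of 71 genes, of which 68 had an entry. Of 19 glycolytic enzymes tested, 15 were higher in retina than in RPE/choroid at foveal, perimacular and nasal locations and 16 at the periphery, and 1, 2, 1 and 2 were lower, beside 37% to 37.8% of all genes higher and 37.9% to 39% lower. Their median log2 fold change was 2.28 at the fovea, against -0.00 over all genes. ENO2, the enolase of neurons, had 3482 to 4056 CPM in foveal retina and 20.6 to 131 CPM in foveal RPE/choroid, and its log2 fold changes at the 4 locations were 6.08, 6.76, 6.77 and 5.48, all called. ALDOC, the aldolase of the nervous system, had 1042 to 1252 CPM in peripheral retina and 32.8 to 141 CPM in peripheral RPE/choroid (log2 fold change 3.75, called). HKDC1, a hexokinase relative, had 33.2 to 43.2 CPM in foveal retina and 0.787 to 1.44 CPM in foveal RPE/choroid (5.06, called). HK3, the hexokinase of white blood cells, went the other way, with 0.863 to 1.46 CPM in peripheral retina and 6.65 to 33.4 CPM in peripheral RPE/choroid (-4.01, called).

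Monocarboxylate carriers outside the named set lay mostly on the RPE/choroid side. Of 10 tested, 2 were higher in retina at each location and 7, 7, 6 and 6 were lower at foveal, perimacular, nasal and peripheral locations, with a median log2 fold change of -2.83 at the fovea. Over all genes 37% to 37.8% were higher and 37.9% to 39% lower, so the list leaned toward lower in retina. The share called in both directions together was near that of all genes, 75.5% to 76.7%. SLC16A4 and SLC16A9 had log2 fold changes of -5.79 and -4.96 at the fovea and SLC16A14 one of -3.82 at the nasal location, all called. SLC16A6, a carrier of ketone bodies, was among those higher in retina, at 82.2 to 115 CPM against 1.08 to 9.12 CPM at the periphery (log2 fold change 4.23, called). The 11 other genes tested from the glucose transporter families included the fructose transporter SLC2A5. At the fovea 2 of the 11 were higher and 6 lower in retina, beside 37% and 38.4% of all genes. At the periphery 0 were higher and 5 lower, beside 37.8% and 37.9%. SLC5A2, a sodium-coupled glucose transporter of the kidney, was listed at 0 in 4 of 4 peripheral retina libraries and at 0.0957 to 0.258 CPM in peripheral RPE/choroid.

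**Figure D5:**
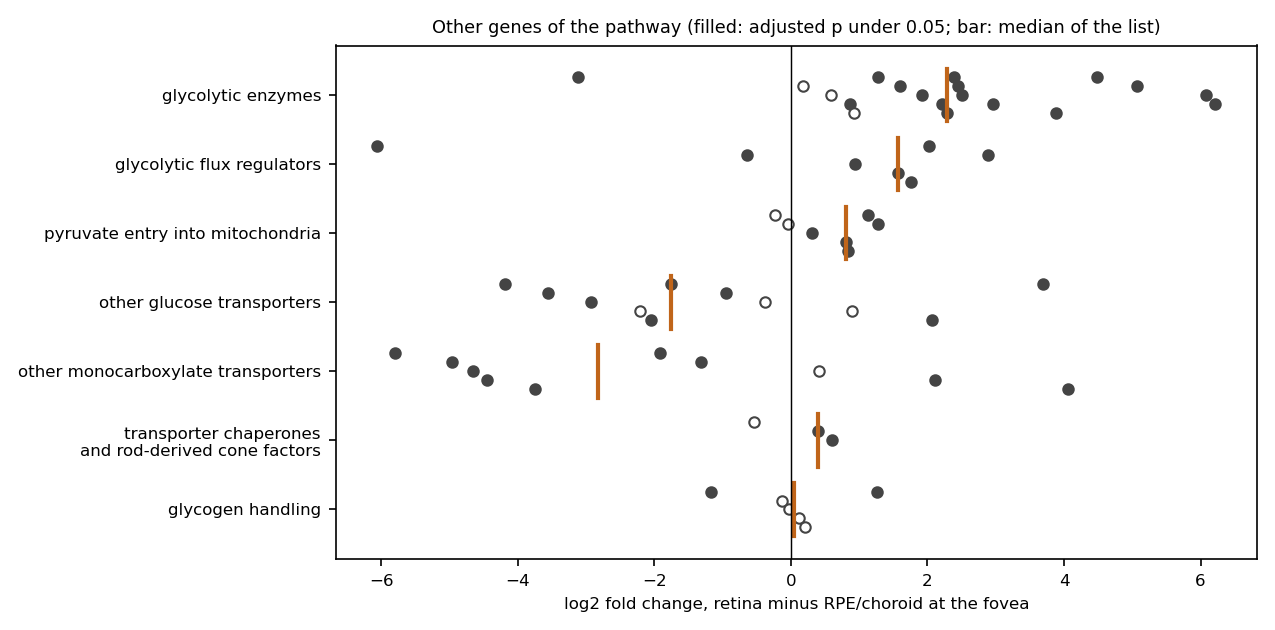
Log2 fold change between retina and RPE/choroid at the fovea for the other genes of the pathway, 1 point per gene, by list; filled points were called and the orange bar is the median of the list. Glycolytic enzymes lie mostly right of 0 (median 2.28) and other monocarboxylate transporters mostly left (median -2.83).

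Within the retina, 14 of 19 glycolytic enzymes were called as higher at the fovea than in perimacular retina and 1 as lower, beside 19% and 16.2% of all genes. Against nasal retina 14 were higher and 1 lower, beside 25.1% and 27.2%, and against peripheral retina 12 and 3, beside 31% and 36%. PKLR, the pyruvate kinase of liver and red cells, had 10.9 to 25.1 CPM at the fovea and 0.117 to 0.878 CPM at the periphery (log2 fold change 5.08, called). ENO3, the muscle enolase, had 9.40 to 13.2 CPM at the fovea and 2.04 to 2.86 CPM in perimacular retina (2.36, called). EMB (embigin), a relative of basigin that serves MCT2 as its chaperone, had 13.6 to 19.1 CPM at the fovea and 1.30 to 1.997 CPM at the periphery, with log2 fold changes of 1.42, 2.21 and 3.36, all called.

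Of 7 regulators of the flux through glycolysis, 3 were called as higher and 2 as lower at the fovea than in perimacular retina. Against both nasal and peripheral retina 5 were higher and 2 lower. Over all genes 19% were higher and 16.2% lower against perimacular retina. The shares were 25.1% and 27.2% against nasal and 31% and 36% against peripheral retina. PFKFB3, which makes the activator of phosphofructokinase, had 29.1 to 44.2 CPM in foveal and 2.22 to 6.44 CPM in peripheral retina (log2 fold change 3.31, called). Its relative PFKFB2 went the other way, with 52.3 to 65.3 CPM in foveal and 156 to 186 CPM in perimacular retina (-1.44, called). PDK4, a kinase that restrains the entry of pyruvate into mitochondria, had 0.861 to 3.61 CPM in foveal and 16.7 to 31 CPM in peripheral retina (-3.74, called), and 94.5 to 168 CPM in foveal RPE/choroid. The insulin-responsive transporter SLC2A4 had 1.60 to 2.54 CPM in foveal and 8.25 to 12.1 CPM in nasal retina (-2.23, called), and its relative SLC2A12 had a log2 fold change of -2.60 against peripheral retina, called. SLC16A12, a creatine carrier, was lower at the fovea too, with log2 fold changes of -2.22 against nasal and -2.90 against peripheral retina, both called.

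In RPE/choroid, against the periphery, 3 of 19 glycolytic enzymes were higher and 6 lower at the fovea, and 4 of the 10 other monocarboxylate carriers were higher and 1 lower. The shares called in both lists were near the 44.1% of all genes. HKDC1 was lower at the fovea (log2 fold change -3.40), at 0.787 to 1.44 CPM against 7.60 to 18.3 CPM at the periphery. SLC16A14 was higher (1.56), at 70.1 to 123 CPM against 10.0 to 49.8 CPM, and so was SLC16A6 (1.30). SLC2A5, the fructose transporter, was lower (-1.43), at 9.52 to 19.4 CPM against 25.5 to 45.9 CPM, and SLC2A4 was higher (1.51), all of these called.

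Across the 16 libraries of the tissue where its mean was higher, each gene was set beside all genes tested by Pearson's correlation of log2 CPM, as a description over libraries that share eyes and locations. SLC16A1 in RPE/choroid was most like SLC16A14 (r = 0.992), PAQR4 (0.991) and CFAP47 (0.989). SLC2A1 and BSG in RPE/choroid were both most like ABCA4 (0.967 and 0.961), SLC16A3 was most like GPD1 (0.970) and SLC16A7 most like EXOC5 (0.827). In retina, SLC2A3 was most like RNF157 (0.994), B3GAT1 (0.993) and LOC715795 (0.993), LDHA most like TRIM35 (0.957) and LDHB most like ATP6V1C1 (0.941).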

How the data were processed

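RNA of 2 mm punches was sequenced in 32 libraries spread over 136 lanes. Per the labels and the methods, the authors quantified reads with Salmon (version 0.13) against Mmul_8.0.1 and summarised them per gene by tximport, scaled by transcript length. The deposited values are the authors' estimated counts per gene and lane, made by Salmon and tximport as above, although their column is named TPM. Values were added over a library's lanes and then rounded, giving 42448891 to 78574034 counts a library. Peripheral libraries came from 2 lanes of 1 flow cell and the others from 5 lanes of 2 flow cells. No blank or summary entry was counted. An entry without strand information cannot separate a gene from an antisense neighbour.

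Counts were filtered with filterByExpr (minimum count 10), scaled by TMM and tested with edgeR 4.0.16 (R 4.3.3) by the quasi-likelihood test, in a model holding the monkey. P-values were adjusted over all genes by the method of Benjamini and Hochberg, and an adjusted p under 0.05 was called. Comparisons of tissues and their interaction were fitted on all 32 libraries. Comparisons of locations were fitted within a tissue on fovea, perimacular and peripheral libraries, with nasal ones added for its own comparison. DESeq2 1.42.0, RLE scaling, other filters, an eye block, no covariate, the compared groups alone, summed entries of a symbol and each eye left out were alternatives. Unscaled library totals and 3 single libraries left out were added after seeing the data.

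The genes and lists were chosen with earlier results of these data known, and so were the rules for naming genes: every member, and from the pathway lists the 3 called genes with the largest rise and the 3 with the largest fall in each comparison. For each member, the 3 genes with the highest Pearson correlation were named. Results of 2 genes that these rules would name are not reported here. Same-numbered samples come from the same eye, and their deviations from the group means correlated at 0.167 to 0.793 in retina and 0.188 to 0.574 in RPE/choroid. The mean correlation was much the same with the fellow eye. It was 0.564 within the eye and 0.559 with the fellow eye in retina, and 0.399 and 0.415 in RPE/choroid. On simulated data with 200 genes changed by 1.5 on the log2 scale, the fit of 32 libraries (16382 genes) recovered 80.0%, the retinal fit 83.5% of 200 (15380 genes) and the RPE/choroid fit 76.5% (15674 genes). False calls numbered 10, 7 and 5 in the same order. The simulated libraries were drawn independently, with no animal or eye effect, so these shares do not give the sensitivity in the real data.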

Additional observations from a re-analysis of the deposited data

Results flagged for a closer look

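Of 72 groups of 4 eyes looked at for the 9 genes, 4 held an eye that stood apart by Dixon's criterion, and chance flags about 1 in 20 groups. HK2 in foveal RPE/choroid was highest in eye 3 at 31 CPM, where the other eyes lay between 13.9 and 16.1 CPM. HK2 in perimacular RPE/choroid was highest in eye 1 at 27.4 CPM, against 14.4 to 16.2 CPM. LDHA in perimacular RPE/choroid was highest in eye 3 at 201 CPM, against 166 to 170 CPM. LDHB in nasal retina was lowest in eye 2 at 439 CPM, against 489 to 497 CPM.

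The step from fovea to another location differed between retina and RPE/choroid, by edgeR's interaction test, for 7 genes. Against perimacular, nasal and peripheral locations 2, 4 and 6 of the 9 genes were called, beside 15.2%, 23.5% and 43.5% of all genes. Some calls were lost when 1 eye was left out. These were SLC16A3 against perimacular, SLC16A7 and LDHB against nasal, and HK2 against the periphery. SLC2A3 had interactions of 1.07, 1.51 and 2.06 on the log2 scale against perimacular, nasal and peripheral locations, and SLC16A3 of 1.19, 1.74 and 2.46. SLC16A7 had 2.19 against nasal and 3.81 against the periphery. LDHB had 0.41 against nasal, and LDHA 0.68 and HK2 0.78 against the periphery. SLC16A1 had -2.23 against the periphery, the single negative value among them.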

How the results depend on the processing

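Of 117 pairs of a gene and a comparison, 57 were called, and 36 of these were called under every alternative. Of 1674 alternative values, 1556 kept direction and call, 60 lost the call (42 of them by leaving out 1 eye or library), 28 gained it and 30 changed sign, none of the latter with a call on either side (edgeR or DESeq2, adjusted p from 0.665 to 1). Pairing by the eye as a replicate block ended the calls of SLC2A1 between nasal tissues (adjusted p = 0.0513) and SLC16A1 between foveal and peripheral retina (0.0505) and gave SLC2A1 in RPE/choroid, fovea against periphery, a call (0.0370). The count called in RPE/choroid between fovea and periphery went from 2 to 4 with DESeq2 or with nasal libraries included, and ran from 2 to 4 over leaving out an eye or library (4 without eye 1). Leaving one out gave 2 to 5 for foveal against perimacular retina (2 without eye 1), 3 to 6 for foveal against peripheral retina (3 without eye 4), 1 to 3 for the perimacular interaction (1 without eye 3, and 1 without the covariate) and 2 to 3 for the nasal interaction (2 without eye 1 or eye 2). Of the values that changed sign, SLC16A7 between foveal tissues became -0.042 without the covariate and spanned -0.24 to 0.31 over leaving one out. SLC16A1 between nasal tissues became 0.13 with library totals and spanned -0.074 to 0.036, and BSG between peripheral tissues spanned -0.37 to 0.16. In retina, BSG at the fovea spanned -0.13 to 0.19, -0.39 to 0.00135 and -0.45 to 0.17 against perimacular, nasal and peripheral samples, and LDHA against perimacular ones -0.050 to 0.054, with -0.0017 unfiltered, -0.0033 in the compared groups alone and -0.0147 with library totals. In RPE/choroid against perimacular samples, HK2 spanned -0.34 to 0.47 and LDHB -0.043 to 0.059 (-0.069 with library totals). Against nasal ones SLC2A3 spanned -0.098 to 0.078 (0.018 with library totals), HK2 -0.23 to 0.41 and LDHA -0.12 to 0.032, and against peripheral ones LDHB -0.17 to 0.0092, while SLC2A3 was -0.0053 with library totals. The HK2 interaction against nasal spanned -0.67 to 0.092. Library totals moved the median of all genes to 0.14 and 0.18 between foveal and nasal tissues, to -0.11 in retina and -0.19 in RPE/choroid between fovea and periphery, against -0.00, 0.01, -0.06 and -0.06 with scaling. The share of called genes that were higher then went from 48.0% to 33.9% in RPE/choroid between fovea and periphery, from 42.9% to 25% against perimacular and from 57.9% to 73.5% against nasal, and the positive share of interactions from 46.5% to 61.9% and from 43.8% to 54.4% against perimacular and the periphery. Why any of these values moved was not tested, and SLC16A7 had counts as low as 21, in peripheral retina.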

Other observations

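A second entry under the symbol LDHA (ENSMMUG00000021460) differed between the animals in both tissues. In retina it lay between 22.8 and 41.9 CPM in the eyes of RM03 and between 0.0659 and 0.278 CPM in those of RM04. In RPE/choroid it lay between 10.9 and 19.7 CPM in RM03 and between 0 and 0.0873 CPM in RM04. With all entries of the symbol summed, LDHA averaged 544, 556, 458 and 444 CPM in foveal, perimacular, nasal and peripheral retina.

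LOC715795, an entry whose human counterpart is listed as SLC2A3, had 35.5, 32.6, 37.4 and 38.0 CPM in foveal retina and 8.57, 6.92, 10.4 and 8.38 CPM in peripheral retina, and 9.26 to 18.9 CPM in RPE/choroid. Its foveal and peripheral retina libraries did not overlap. LDHA itself also followed the animal in retina, at 303 to 410 CPM in RM03 and 462 to 751 CPM in RM04 over all locations, and SLC16A3 was higher in both eyes of RM04 than in both of RM03 at 4 of 4 retinal locations. With 2 animals this difference cannot be tested.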
